A study of Mus musculus with 12 samples.

Results

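Csf1 and 8 other cytokine ligands, Csf2, Il1a, Il1b, Il6, Tnf, Lif, Osm and Tgfb1, were followed in LSK cells, sorted as lineage-negative, SCA1-positive and cKIT-positive, a marrow fraction rich in blood stem and progenitor cells of the mouse. The members are the array rows whose platform gene symbol is exactly 1 of these 9 names, with the brightest row taken for each gene, among 22180 genes that have such a row and 15348 that were tested. The set was chosen by the measured difference of Csf1 between irradiated and untreated cells, which was large. Differences of the 9 ligands between irradiated and untreated cells are therefore given as a description, with standard errors (SE) and without p-values, and p-values are given only for genotype, which did not enter the choice.

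The 12 Affymetrix arrays form 4 groups of 3, which are wild type (WT) untreated, WT irradiated with 4 Gy, NIPA knockout (KO) untreated and NIPA KO irradiated with 4 Gy. NIPA is the protein of Zc3hc1, and the sources used here do not state which part of it the KO mice lack. All mice, WT and KO, were over 20 months old and had been backcrossed to C57BL/6 for 10 generations or more, and every sample merged the sorted cells of 3 mice. All 4 groups first spent 30 min in DMEM holding 10 ng/ml interleukin 3, 10 ng/ml interleukin 6, 50 ng/ml stem cell factor and 30% serum (FCS), and RNA was taken 3 h after irradiation or no treatment. Interleukin 6 protein was thus supplied to every sample, while the arrays measure the cells' own Il6 transcript.

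The arrays had medians of 5.74 to 5.85 on the log2 scale, with correlations of 0.960 to 0.986 within groups and 0.940 to 0.988 between groups over the genes.

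Cytokine ligands are secreted or membrane-bound proteins that bind receptors on the same or neighbouring cells. CSF1 and GM-CSF, the product of Csf2, direct progenitors towards macrophages and granulocytes. Interleukin 1 and tumour necrosis factor are inflammatory signals that act through NF-kB. Interleukin 6, LIF and oncostatin M share the signalling receptor gp130 and act through STAT3, whereas TGF-beta 1 holds stem cells in quiescence in the marrow.

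Promoter windows show the sequence context of these transcripts, and Csf1 is printed in full because the set turns on it. RefSeq promoter windows of build GRCm38.p6, 250 bases before to 50 bases after a start site, were at hand for 8 of the 9 members. Capitals in the Csf1 window, chr3:107760420-107760719 on the minus strand, mark a match to the NF-kB consensus, which lies on the reverse strand from base -154 to base -145 relative to the start site.
Csf1: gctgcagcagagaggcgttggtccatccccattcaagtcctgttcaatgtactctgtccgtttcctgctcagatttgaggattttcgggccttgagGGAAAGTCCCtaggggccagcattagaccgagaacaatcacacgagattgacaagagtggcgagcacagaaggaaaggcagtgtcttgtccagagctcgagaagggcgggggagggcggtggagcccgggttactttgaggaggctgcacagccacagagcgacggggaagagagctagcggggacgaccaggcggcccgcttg

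The NF-kB consensus also matched in the windows of Il6, Lif and Tgfb1, and these matches, in capitals with 10 bases on each side, are shown so that the same motif can be read side by side in 4 members. The first base of the match lay at -44 in Il6 (window chr5:30012864-30013163, plus strand), -178 in Lif (chr11:4257318-4257617, plus strand) and -140 in Tgfb1 (chr7:25686752-25687051, plus strand). Those of Lif and Tgfb1 match on both strands.
Il6: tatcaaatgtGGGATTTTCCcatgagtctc
Lif: atcaagtacaGGGACGCCCCctccccacac
Tgfb1: cagggctgaaGGGACCCCCCttggagcccg

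The windows of Il1a, Il1b and Tnf held the TATA motif TATAAA with its first base at -32, -31 and -29, and the windows of Csf1, Csf2, Il6, Lif and Tgfb1 did not hold these letters. The AP-1 motif TGANTCA was found in Il1a, Il6 and Lif, and the p53 half-site consensus in Csf2 and Il6. Both strands were searched, and the matches printed do not overlap each other. Of 32851 windows of the same length, 8.46% held the NF-kB consensus, 8.36% the p53 half-site, 7.81% the AP-1 motif and 13.6% the TATA motif. A match describes letters in this window and is not a measured binding site.

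Csf1, the growth factor of macrophages, was the ligand with the largest difference after irradiation. On the log2 scale of the deposited values its levels were 7.38, 7.41 and 7.04 in untreated WT arrays 1, 2 and 3, and 9.11, 8.67 and 9.45 in the irradiated WT arrays. In KO cells they were 6.87, 7.44 and 7.20 without irradiation and 8.78, 9.68 and 9.87 after it. All 6 irradiated arrays lay above all 6 untreated ones.

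Group means of Csf1 on this scale were 7.17 ± 0.29 in untreated KO, 7.27 ± 0.21 in untreated WT, 9.08 ± 0.39 in irradiated WT and 9.44 ± 0.58 in irradiated KO cells (SD, n = 3 each), in ascending order. Neighbours of the same treatment in this order differed by less than the spread of their arrays, while the step from untreated to irradiated exceeded it. Irradiated WT cells were higher by 1.80 (SE 0.27, a 3.49-fold difference) and irradiated KO cells by 2.27 (SE 0.27, 4.83-fold). Counted from the largest rise, Csf1 ranked 44 among the 15348 genes tested in WT and 26 in KO cells. It was highest in irradiated KO array 3 and lowest in untreated KO array 1. With single arrays left out, the difference ranged from 1.62 to 2.01 in WT and from 2.06 to 2.60 in KO cells.

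**Figure D1:**
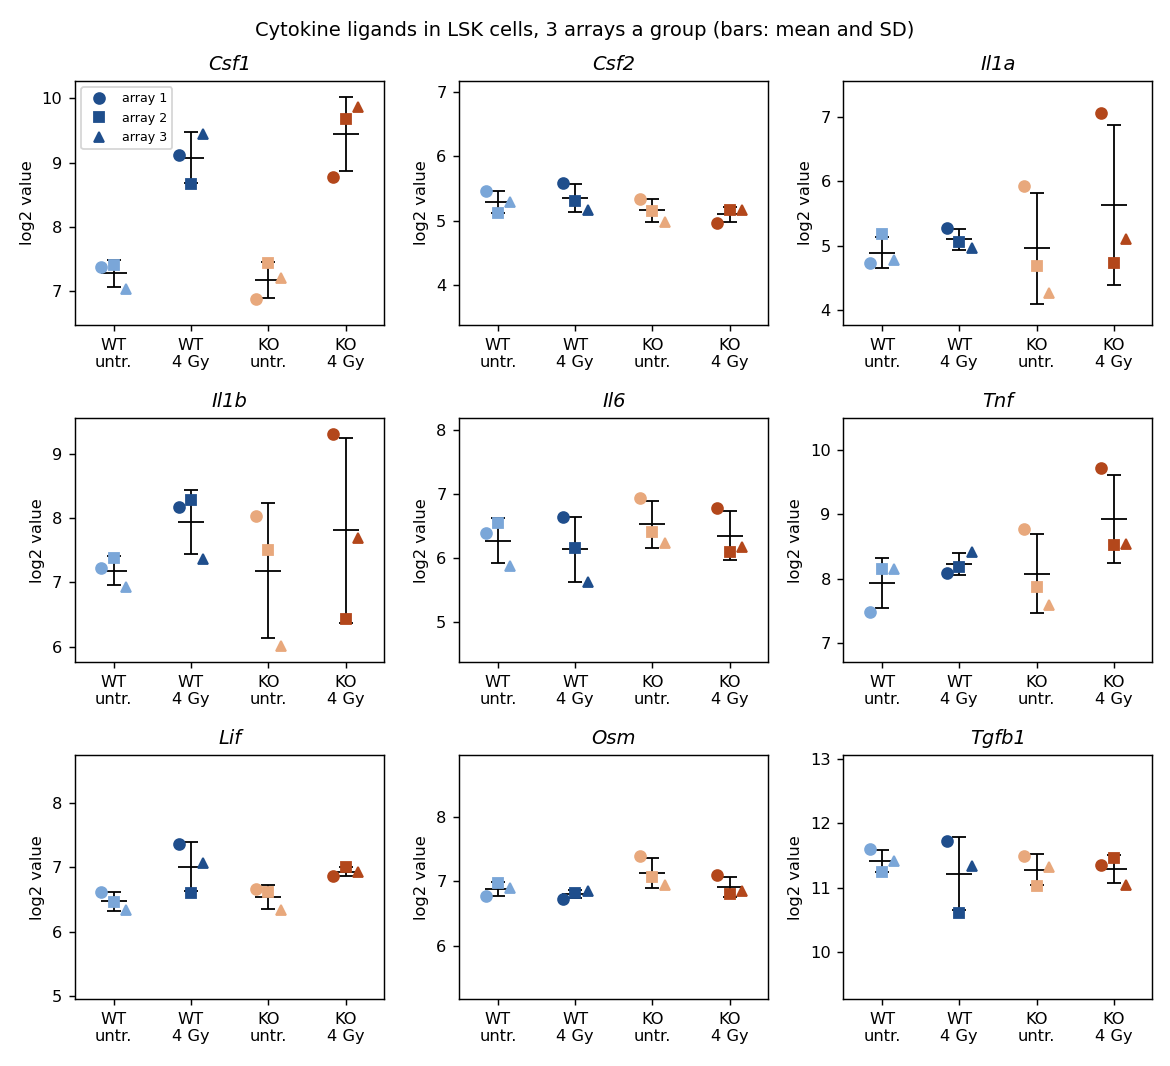
Log2 values of the 9 ligands (vertical axes, each spanning the same 3.8 log2 units) in the 4 groups, with 1 symbol per array by its replicate number and bars for mean and SD. Csf1 separates the 6 irradiated from the 6 untreated arrays, and Il1a, Il1b and Tnf are highest in irradiated KO array 1.

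Csf2, which encodes GM-CSF, was close to the brightness limit of 5.29, the 40th percentile of all values, that a gene had to exceed in 3 arrays to be tested. It exceeded the limit in 5 of 12 arrays, with 5.46, 5.12 and 5.29 in untreated WT, 5.58, 5.30 and 5.17 in irradiated WT, 5.34, 5.15 and 4.98 in untreated KO and 4.96, 5.16 and 5.16 in irradiated KO cells. The irradiated and untreated arrays overlapped in both genotypes, with differences of 0.06 (SE 0.14) in WT and -0.06 (SE 0.14) in KO cells. A dimmer Csf2 row, not used, stayed between 3.61 and 4.11 in all arrays. Csf2 transcript was therefore little above the dim part of the arrays in every group.

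The interleukin 1 genes, whose products are early inflammatory signals, were set apart by their spread between arrays. Il1a, the form that is active without cleavage, exceeded the limit only in untreated KO array 1 (5.92) and irradiated KO array 1 (7.06), so it was not tested. Its other values were 4.73, 5.18 and 4.77 in untreated WT, 5.28, 5.05 and 4.97 in irradiated WT, 4.69 and 4.27 in untreated KO and 4.73 and 5.10 in irradiated KO cells. The treatments overlapped in both genotypes, with differences of 0.21 in WT and 0.67 in KO cells.

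Il1b, the form that caspase 1 cleaves before release, measured 7.22, 7.38 and 6.94 in untreated WT and 8.17, 8.29 and 7.37 in irradiated WT cells. In KO cells it measured 8.03, 7.51 and 6.00 without irradiation and 9.31, 6.43 and 7.70 after it. The arrays of each genotype overlapped between treatments, in WT only because irradiated array 3 fell just under untreated array 2. Irradiated cells were higher by 0.76 (SE 0.62) in WT and 0.63 (SE 0.62) in KO cells. The residual SD of Il1b over the 4 groups was 0.93, at percentile 99.6 of the genes tested, so that differences of this size lie within the spread of its arrays. Without irradiated KO array 1 the KO difference was -0.12, and without irradiated KO array 2 it was 1.32.

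Tnf, the gene of tumour necrosis factor, measured 7.48, 8.15 and 8.15 in untreated WT, 8.09, 8.18 and 8.41 in irradiated WT, 8.77, 7.88 and 7.58 in untreated KO and 9.72, 8.53 and 8.54 in irradiated KO cells. Array 1 was the highest of its group in KO and the lowest in WT cells, for both treatments. The difference was 0.30 (SE 0.34) in WT and 0.85 (SE 0.34) in KO cells, and the treatments overlapped in both genotypes. Each irradiated KO array exceeded the untreated KO array of its number, by 0.94, 0.65 and 0.96, though the numbers do not pair the KO arrays over all genes. The WT difference was 0.07 without untreated WT array 1. The KO difference was 0.46 without irradiated KO array 1 and 1.20 without untreated KO array 1.

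The gp130 ligands behaved differently from each other. Lif, which sustains self-renewal of embryonic stem cells, measured 6.62, 6.46 and 6.33 in untreated WT and 7.36, 6.60 and 7.07 in irradiated WT cells. In KO cells it measured 6.67, 6.62 and 6.33 without and 6.87, 7.01 and 6.93 after irradiation. Treatments did not overlap in KO cells, and in WT cells irradiated array 2 lay just under untreated array 1. Irradiated cells were higher by 0.54 (SE 0.17) in WT and 0.39 (SE 0.17) in KO cells.

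Il6, the gene of interleukin 6, measured 6.38, 6.55 and 5.87 in untreated WT, 6.64, 6.15 and 5.62 in irradiated WT, 6.93, 6.41 and 6.23 in untreated KO and 6.78, 6.10 and 6.17 in irradiated KO cells. Osm, which encodes oncostatin M, measured 6.77, 6.98 and 6.90, then 6.73, 6.82 and 6.84, then 7.40, 7.06 and 6.94, then 7.09, 6.80 and 6.86 in the same order of groups. Treatments overlapped for both genes in both genotypes. Il6 differed by -0.13 (SE 0.28) in WT and -0.18 (SE 0.28) in KO cells, Osm by -0.08 (SE 0.13) and -0.22 (SE 0.13).

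Tgfb1, the gene of TGF-beta 1, measured 11.59, 11.24 and 11.41 in untreated WT, 11.72, 10.60 and 11.33 in irradiated WT, 11.49, 11.02 and 11.33 in untreated KO and 11.35, 11.47 and 11.04 in irradiated KO cells. Its groups overlapped throughout, with differences after irradiation of -0.20 (SE 0.24) in WT and 0.01 (SE 0.24) in KO cells. Irradiated WT array 2 was the lowest of all 12, and without it the WT difference was 0.11.

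The labels do not say whether same-numbered arrays came from the same pool of mice. Deviations of same-numbered untreated and irradiated WT arrays went together over all genes. Each ligand was therefore also read within these inferred pairs. Csf1 was higher in the irradiated WT array of each pair, by 1.73, 1.26 and 2.42 on the log2 scale. Lif was higher in 3 of 3 pairs, by 0.74, 0.14 and 0.74, as was Il1b, by 0.95, 0.90 and 0.43, and Tnf, by 0.61, 0.03 and 0.25. The pair numbered 2 had the smallest difference for Csf1, Lif and Tnf, and the pair numbered 3 for Il1b. Osm was lower in each pair, with differences of -0.04, -0.16 and -0.06, and Csf2, Il1a, Il6 and Tgfb1 differed in sign between pairs. In KO cells the numbers do not pair the arrays. By the deviations over all genes, untreated KO array 1 went with irradiated array 1 (correlation 0.47). Untreated KO array 2 went with irradiated array 3 (0.44), and untreated KO array 3 with irradiated array 2 (0.52). Same-numbered KO differences of Csf1 were 1.91, 2.24 and 2.67, those of Lif 0.20, 0.39 and 0.60, and those of Il1b 1.27, -1.08 and 1.69. For numbers 2 and 3 they cross these matches, so they are not differences within pairs. Along the matches, which were inferred from these arrays, Il1b went from 8.03 to 9.31, from 7.51 to 7.70 and from 6.00 to 6.43. Csf1 and Lif were also higher in the irradiated array of each match.

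The ligands differed in how far arrays of 1 group lay apart. The residual SD over the 4 groups was 0.93 for Il1b, 0.51 for Tnf, 0.40 for Il6, 0.39 for Csf1, 0.34 for Tgfb1, 0.23 for Lif, 0.17 for Csf2 and 0.15 for Osm on the log2 scale. Il1b, Tnf, Il6, Csf1 and Tgfb1 stood at percentiles 99.6, 97.5, 94.6, 94.1 and 90.5 of all genes tested in this spread. The Csf1 difference exceeded its residual SD in both genotypes, and that of Il1b was smaller than its residual SD in both.

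Counting arrays that did not overlap, 1 of the 9 ligands was higher in irradiated WT cells (Csf1) and 2 in irradiated KO cells (Csf1 and Lif), and none was lower. Over all genes tested, arrays did not overlap towards higher values in 11.4% in WT and 10.2% in KO cells, and towards lower values in 13.3% and 13.2%. The choice of the set used this contrast, so nothing is read from the counts.

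No ligand passed the test between genotypes. Zc3hc1, which checks the labels, measured 8.47, 8.39 and 7.99 in untreated WT and 5.82, 5.74 and 5.78 in untreated KO cells, lower by 2.50 on the log2 scale (limma adjusted p = 1.4e-05). It was the 1 gene that passed in each genotype comparison, 0.00652% of the genes tested, where 330 genes in untreated and 471 in irradiated cells had an unadjusted p under 0.05. For the difference of the irradiation effects 0 genes passed and 235 had an unadjusted p under 0.05. Over untreated cells, irradiated cells and the difference of the irradiation effects, 0 of the 24 limma tests of the 8 ligands passed, 0 had an unadjusted p under 0.05 and the lowest adjusted p was 0.9995. Csf1 differed between KO and WT by -0.10 (95% interval -0.69 to 0.49) without irradiation and by 0.37 (-0.23 to 0.96) after it. The irradiation effect on Csf1 was larger in KO cells by 0.47 (-0.37 to 1.31). These intervals contain 0 and also contain differences of over 0.4 on the log2 scale.

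Tnf had the largest genotype difference among the ligands, 0.70 (95% interval -0.05 to 1.45, limma adjusted p = 0.9995) in irradiated cells, where all KO arrays lay above all WT arrays. Csf2 was the other ligand without overlap, lower in irradiated KO cells by 0.26 (interval -0.56 to 0.05, adjusted p = 0.9995). Its irradiated KO values of 4.96, 5.16 and 5.16 all lay under the brightness limit, as did irradiated WT array 3 (5.17). Among KO arrays only untreated array 1 exceeded the limit, so Csf2 was tested mainly through WT arrays. The Csf2 difference thus lies among dim values and is given as a description. Without overlap were 2.57% of all genes tested towards higher and 3.83% towards lower values in irradiated KO cells, and no ligand in untreated cells, where the shares were 4.40% and 3.55%. Without irradiated KO array 1 the Tnf difference was 0.31 (adjusted p = 0.895). Differences of the remaining ligands between KO and WT after irradiation were 0.21 for Il6 (95% interval -0.39 to 0.82), 0.12 for Osm (-0.17 to 0.41), 0.07 for Tgfb1 (-0.45 to 0.59), -0.08 for Lif (-0.45 to 0.30) and -0.13 for Il1b (-1.48 to 1.22). Single arrays decided the sign for all of these but Osm. Il1b had -0.88 without irradiated KO array 1 and 0.56 without irradiated KO array 2, and Tgfb1 had -0.24 without irradiated WT array 2 and 0.32 without irradiated WT array 1. Lif had 0.10 without irradiated WT array 1, Il6 had -0.04 without irradiated WT array 3, and Osm ranged from 0.03 to 0.18.

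Without irradiation the KO minus WT differences were 0.26 for Il6 (95% interval -0.35 to 0.86), 0.25 for Osm (-0.03 to 0.54) and 0.15 for Tnf (-0.60 to 0.90). They were 0.07 for Lif (-0.31 to 0.44), 0.00 for Il1b (-1.35 to 1.35), -0.13 for Csf2 (-0.44 to 0.17) and -0.13 for Tgfb1 (-0.65 to 0.39). The interval of Il1b was the widest and that of Osm the narrowest, so a difference of 1 on this scale lies inside the first and outside the second. The difference of the irradiation effects, KO minus WT, was 0.55 (-0.51 to 1.61) for Tnf, 0.21 (-0.53 to 0.94) for Tgfb1, -0.04 (-0.90 to 0.81) for Il6, -0.12 (-0.56 to 0.31) for Csf2, -0.13 (-2.04 to 1.78) for Il1b, -0.13 (-0.54 to 0.27) for Osm and -0.15 (-0.68 to 0.38) for Lif.

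**Figure D2:**
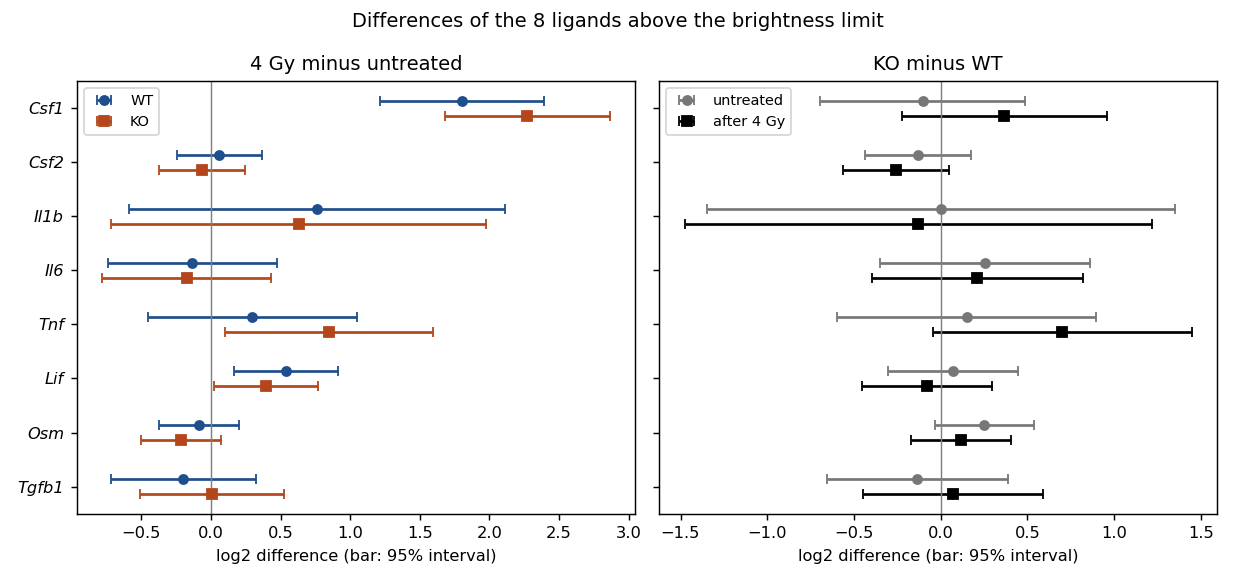
Log2 differences of the 8 tested ligands with 95% intervals, for irradiated minus untreated cells on the left (WT circles, KO squares) and KO minus WT on the right (untreated circles, irradiated squares). Csf1 lies at 1.80 and 2.27 on the left, and every interval on the right contains 0.

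In KO cells the arrays numbered 1 carried the highest values of several inflammatory ligands, with and without irradiation. Untreated KO array 1 was the highest of its group for 8 of the 9 ligands, Csf1 being the exception, and irradiated KO array 1 for 5, namely Il1a, Il1b, Il6, Tnf and Osm. Csf1 was lowest of its group in both of these arrays. In WT cells array 1 was the highest of its group for 3 ligands without and 5 after irradiation.

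Markers of monocytes and macrophages were also high in these KO arrays. Of the 15 markers listed, 14 were measured, and their mean log2 value was 7.35 in untreated KO array 1 and 7.58 in irradiated KO array 1. It lay between 6.77 and 6.96 in untreated WT, between 6.77 and 6.86 in irradiated WT, and between 6.65 and 6.92 in the other KO arrays. In each of the KO arrays numbered 1, 11 of the 14 markers were at their highest of the group.

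Ccr2, the chemokine receptor of inflammatory monocytes, measured 7.61 and 7.63 in the KO arrays numbered 1 and at most 6.39 in any other array. Cd14, the co-receptor for bacterial lipopolysaccharide, measured 7.82 and 8.84 there and at most 7.59 elsewhere. Ms4a7, a marker of mature macrophages, stayed under the brightness limit in all 12 arrays, with a highest value of 5.07. C1qa, a complement gene of macrophages, ranged only from 5.79 to 6.32.

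Each array sums over all cells of a pool, so more cells of a type and more transcript per cell cannot be told apart. The part of these markers in the ligand values was not tested. The arrays were singled out after their values were seen. Without both KO arrays numbered 1, Csf1 differed by 2.45 (SE 0.23) between irradiated and untreated KO cells, Tnf by 0.80 (SE 0.22) and Il1b by 0.31 (SE 0.50). The genotype difference after irradiation was then 0.70 (limma adjusted p = 0.876) for Csf1 and 0.31 (adjusted p = 0.876) for Tnf.

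**Figure D3:**
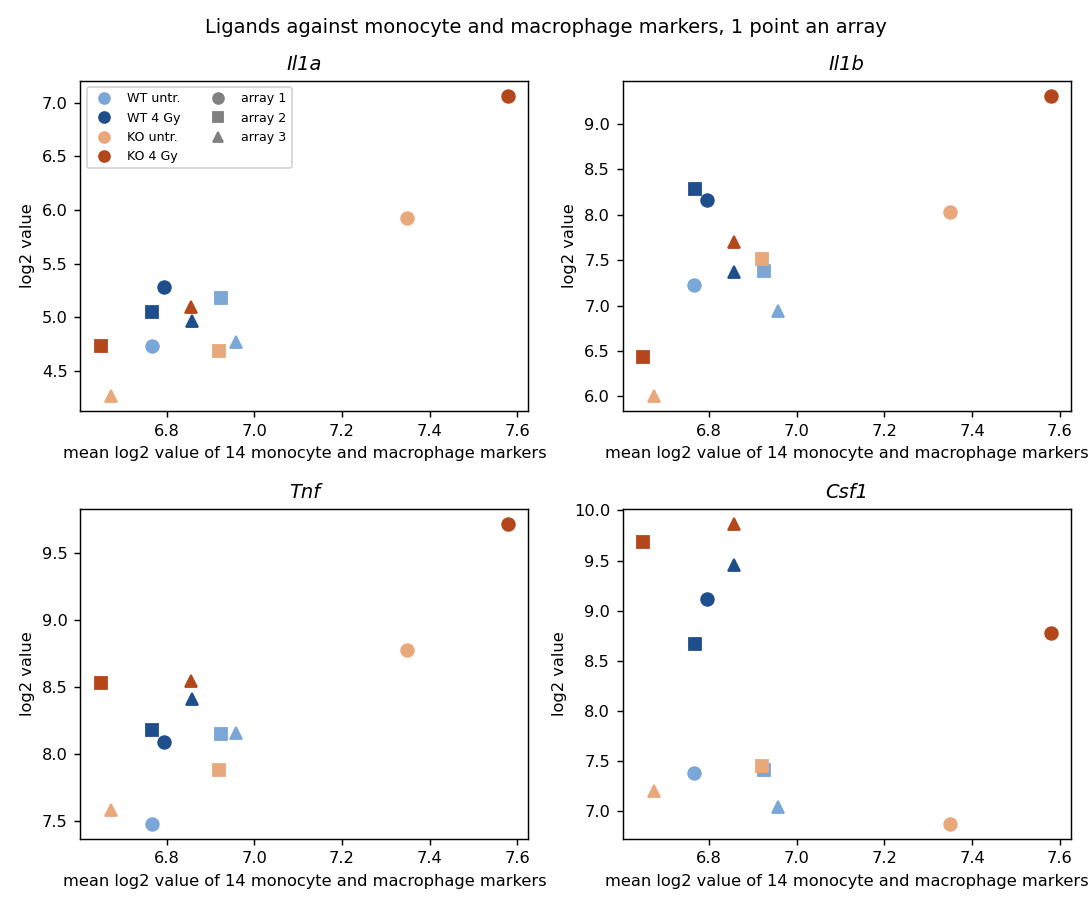
Log2 value of Il1a, Il1b, Tnf and Csf1 (vertical) against the mean log2 value of 14 monocyte and macrophage markers (horizontal), 1 point per array, coloured by group and shaped by replicate number. The KO arrays numbered 1 stand at 7.35 and 7.58 on the horizontal axis, apart from the other 10, with the highest Il1a and Tnf values and low Csf1 values for their groups.

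Granulocyte markers were high in the same KO arrays, with 11 of 12 at their highest of the group in untreated KO array 1 and 8 of 12 in irradiated KO array 1. Their mean log2 value was 8.55 in untreated KO array 1 and 8.61 in irradiated KO array 1, against 7.57 to 8.08 in the other KO arrays. In WT cells array 1 had the lowest mean (7.48 untreated and 7.65 irradiated) and array 3 the highest (8.86 and 8.75). The part of the granulocyte markers in the ligand values was not tested. The B cell markers were highest in untreated KO array 2 (7.56) and irradiated KO array 3 (7.68). T and NK cell markers stayed between 5.28 and 5.54 in all arrays. The markers of LSK cells, with 10 of 12 measured, had means of 8.65 to 9.26, and at least 9 of the 10 exceeded the limit in each array. Ly6a, the gene of SCA1, was not analysed here.

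Erythroid markers, with 6 of 10 measured, were lower in irradiated cells. Their mean log2 value ranged from 6.59 to 7.01 in untreated and from 5.90 to 6.03 in irradiated WT arrays, and from 7.05 to 7.51 in untreated and 5.85 to 6.35 in irradiated KO arrays, so the treatments did not overlap in either genotype. Of the 6, 1 fell in WT cells (median -0.58) and 4 fell in KO cells (median -0.83) by limma, and none rose. Of the 10 LSK markers 1 fell in WT and 2 in KO cells, with medians of -0.11 and -0.18. Over all genes tested 2.70% fell in WT and 3.20% in KO cells. The part of these shifts in the differences of the ligands and of the lists that follow was not tested.

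Receptors for the 9 ligands were tested as a list of 16, all measured and bright enough. In irradiated WT cells 1 rose and 2 fell, and in irradiated KO cells 2 rose and 2 fell, with median log2 differences of 0.03 and 0.05. Over all genes tested 2.13% rose and 2.70% fell in WT cells, 2.74% rose and 3.20% fell in KO cells, and the medians were 0.00 and -0.02.

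Il1r1, the signalling receptor of interleukin 1, fell in both genotypes. Its values were 8.29, 8.95 and 8.74 in untreated and 7.47, 7.83 and 7.51 in irradiated WT cells, and 8.90, 8.77 and 8.76 in untreated and 8.19, 7.50 and 7.42 in irradiated KO cells. No irradiated array reached an untreated one. The fall was -1.06 (SE 0.21, limma adjusted p = 0.013) in WT and -1.11 (SE 0.21, adjusted p = 0.0087) in KO cells. This WT call missed the threshold when 1 of 3 arrays was left out, untreated WT 2 (adjusted p = 0.070), untreated WT 3 (0.062) or irradiated WT 3 (0.057).

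Lifr, the ligand-binding receptor of LIF, fell by 1.06 (SE 0.21, limma adjusted p = 0.011) in WT and by 0.94 (SE 0.21, adjusted p = 0.020) in KO cells. It measured 6.08, 6.89 and 6.77 in untreated and 5.47, 5.65 and 5.45 in irradiated WT cells, without overlap. In KO cells it measured 7.12, 6.94 and 6.65 before and 6.27, 5.80 and 5.83 after irradiation, also without overlap. Leaving out untreated WT 2 (adjusted p = 0.063), untreated WT 3 (0.066) or irradiated WT 3 (0.052) ended the WT call. Leaving out untreated KO 1 (0.084), untreated KO 2 (0.075), irradiated KO 2 (0.080) or irradiated KO 3 (0.073) ended the KO call.

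Tnfrsf1b, the second receptor of tumour necrosis factor, rose by 0.64 (SE 0.12, limma adjusted p = 0.011) in WT and by 0.54 (SE 0.12, adjusted p = 0.023) in KO cells. Its highest untreated value was 9.47 and its lowest irradiated value 9.73. The call was lost in WT cells without untreated WT array 3 (0.066), and in KO cells without untreated KO array 2 (0.10) or 3 (0.074), without irradiated KO array 2 (0.082), without both KO arrays numbered 1 (0.058) or with only the KO arrays in the fit (0.054). Tgfbr3, a co-receptor that presents TGF-beta, rose by 0.71 (SE 0.17, adjusted p = 0.032) in KO cells and had 0.64 (adjusted p = 0.055) in WT cells. For Tgfbr3 the KO call was lost without untreated KO array 1 (0.10), 2 (0.10) or 3 (0.064), without irradiated KO array 2 (0.053) or with only the KO arrays in the fit (0.12). In WT cells it was gained with the replicate number as a block inside each genotype (0.042) or over all groups (0.046), with the 60th percentile limit (0.048), with only the WT arrays (0.016), without irradiated KO array 1 (0.026) or 2 (0.0038) and without both KO arrays numbered 1 (0.038).

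The other receptors did not pass in the fit of all 12 arrays. Csf1r, the receptor of CSF1 and itself a monocyte marker, had -0.76 (SE 0.51, limma adjusted p = 0.44) in WT and -0.84 (SE 0.51, adjusted p = 0.40) in KO cells. It measured 9.44, 8.94 and 7.96 in untreated and 9.28, 6.90 and 7.62 in irradiated KO cells, and without irradiated KO array 1 it passed in KO cells (adjusted p = 0.028). Il6st, which encodes gp130, had 0.33 in both genotypes (adjusted p = 0.25 in each) and passed in KO cells without irradiated KO array 1 (0.038). Osmr, the oncostatin M receptor, had 0.80 (SE 0.43) and 0.53 (SE 0.43) with adjusted p = 0.34 and 0.56. The remaining values in WT and KO cells were 0.05 and 0.23 for Tnfrsf1a, 0.02 and -0.02 for Csf2ra, -0.10 and -0.04 for Csf2rb, 0.00 and 0.06 for Il1rap, -0.03 and 0.03 for Il6ra, 0.03 and 0.09 for Tgfbr1 and -0.04 in each for Tgfbr2.

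Genes that process or release the ligands were 19 tested of 22 listed, with 2 that rose in WT cells and 3 that rose and 1 that fell in KO cells (medians 0.09 and 0.08). The shares of all genes tested were 2.13% rising and 2.70% falling in WT cells, and 2.74% and 3.20% in KO cells. Rhbdf2, which brings the shedding protease of tumour necrosis factor to the cell surface, rose by 1.06 (SE 0.17, limma adjusted p = 0.0034) in WT and by 1.21 (SE 0.17, adjusted p = 0.0014) in KO cells. Its untreated values lay between 6.86 and 7.40 and its irradiated values between 7.90 and 8.64. Adam17, that protease, rose by 0.71 (adjusted p = 0.025) in KO cells and had 0.48 (adjusted p = 0.12) in WT cells, where it passed with the replicate block inside each genotype (0.041).

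Casp4, the mouse inflammatory caspase 11 gene, rose by 0.72 (SE 0.15, limma adjusted p = 0.019) in WT and by 0.99 (SE 0.15, adjusted p = 0.0028) in KO cells. Nrros, which anchors latent TGF-beta 1 on myeloid cells, fell by 0.74 (SE 0.19, adjusted p = 0.043) in KO cells and had -0.72 (adjusted p = 0.056) in WT cells. The KO call of Adam17 ended when untreated KO 2 (0.10), untreated KO 3 (0.093), irradiated KO 1 (0.051) or irradiated KO 3 (0.055) was left out, and with only the KO arrays (0.070). The WT call of Casp4 ended when untreated WT 2 (0.093), untreated WT 3 (0.086), irradiated WT 1 (0.057) or irradiated WT 3 (0.055) was left out. That of Nrros ended when untreated KO 1 (0.16), untreated KO 2 (0.12), irradiated KO 2 (0.16), irradiated KO 3 (0.15), untreated WT 2 (0.058), irradiated WT 1 (0.051), irradiated WT 2 (0.055) or irradiated WT 3 (0.052) was left out. It also lost the call without a brightness limit (0.051), with array medians subtracted (0.060) and with only the KO arrays (0.090). In WT cells Nrros passed with the replicate block inside each genotype (0.026), the 60th percentile limit (0.048), only the WT arrays (0.049), without untreated WT array 1 (0.025), without irradiated KO array 1 (0.024) and without both KO arrays numbered 1 (0.022).

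Of 16 tested genes that control the decay of cytokine transcripts, 1 rose and none fell in each genotype, with medians of 0.01 in both. That gene was N4bp1, a suppressor of inflammatory cytokine production, at 0.65 (SE 0.13, limma adjusted p = 0.014) in WT and 0.78 (SE 0.13, adjusted p = 0.0045) in KO cells. Its WT call was lost without untreated WT array 3 (0.069). For comparison, 2.13% of all genes tested rose and 2.70% fell in WT cells, and 2.74% and 3.20% in KO cells.

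Among the 7 lists, NF-kB targets of tumour necrosis factor and interleukin 1 had the largest share of genes that passed. Of 23 tested, 8 rose and none fell in WT cells (median 0.40), and 12 rose and none fell in KO cells (median 0.56). Over all genes tested 2.13% rose in WT and 2.74% in KO cells. The lists were written with earlier results of these data known, so their order by share is a description. Nfkbia, the inhibitor that NF-kB induces, measured 9.60, 9.58 and 9.60 in untreated and 10.29, 10.31 and 10.33 in irradiated WT cells, a rise of 0.72 (SE 0.11, limma adjusted p = 0.0021). In KO cells it rose by 1.07 (SE 0.11, adjusted p = 0.00015). Cxcl2, a chemokine for neutrophils, rose by 1.30 and 1.49, Traf1, an adaptor of tumour necrosis factor receptors, by 1.23 and 1.63, Nfkb2 by 0.91 and 1.15 and Relb by 0.73 and 1.03 in WT and KO cells. The WT count was 5 when untreated WT 2 or irradiated WT 3 was left out and 3 when untreated WT 3 was, and the lowest KO count was 8, when untreated KO 2 was left out. Leaving out untreated WT 2 (0.066), untreated WT 3 (0.070) or irradiated WT 3 (0.055) ended the WT call of Traf1, and leaving out untreated WT 3 (0.056) that of Relb.

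STAT targets of the gp130 ligands and GM-CSF had 0 calls in WT cells by limma and 1 rise in KO cells among 21 tested, with medians of 0.00 and -0.15. Junb, a transcription factor gene that STAT3 induces, rose by 0.96 (SE 0.19, limma adjusted p = 0.014) in KO cells and had 0.62 (adjusted p = 0.096) in WT cells. Targets of TGF-beta likewise had 0 calls in WT cells and 1 rise in KO cells among 19 tested, with medians of 0.09 and 0.03. Cdkn2b, an inhibitor of cyclin D kinases, rose by 0.63 (SE 0.17, adjusted p = 0.048) in KO cells and had 0.40 (adjusted p = 0.22) in WT cells. By the adjusted test 2.13% of all genes tested rose and 2.70% fell in WT cells, and 2.74% and 3.20% in KO cells. At an unadjusted p under 0.05 there were 7 STAT and 2 TGF-beta targets in WT cells, where 3040 of all 15348 genes passed that mark, and 6 and 3 in KO cells, where 3055 did.

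Junb lost its KO call without untreated KO array 2 (0.066) or irradiated KO array 2 (0.061), and passed in WT cells without untreated WT array 1 (0.041). Cdkn2b lost its KO call in 14 of 22 other settings. It did so without any KO array other than irradiated array 1, with adjusted p of 0.12, 0.072 and 0.15 without untreated KO arrays 1, 2 and 3 and 0.17 and 0.093 without irradiated KO arrays 2 and 3. Without untreated WT arrays 1, 2 and 3 it had 0.054, 0.064 and 0.068, and without irradiated WT arrays 2 and 3 it had 0.052 and 0.062. It had 0.057 without a brightness limit, 0.052 with a trended and robust prior, 0.11 with only the KO arrays and 0.054 without both KO arrays numbered 1.

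Of 42 other haematopoietic and inflammatory ligands listed, 38 were measured and 29 tested, with 1 gene past the test upwards and 1 downwards in each genotype and medians of -0.01 and -0.04. Among all genes tested 2.13% rose and 2.70% fell in WT cells, and 2.74% and 3.20% in KO cells. Kitl, the gene of stem cell factor, whose protein was also in the medium, measured 5.01, 4.82 and 4.78 in untreated and 5.86, 5.37 and 5.81 in irradiated WT cells. All 6 untreated arrays lay under the brightness limit and all 6 irradiated ones above it, so Kitl was tested only through the groups where it was high. Its differences of 0.81 in WT and 0.93 in KO cells start from dim values and are given as a description, and with the limit at the 60th percentile it was not tested and the upward count was 0 in both genotypes. Il12a, the smaller subunit of interleukin 12, fell by 1.09 (SE 0.24, adjusted p = 0.021) in WT and by 1.21 (SE 0.24, adjusted p = 0.011) in KO cells. Il12a lost its WT call when untreated WT 2 (0.098), untreated WT 3 (0.10) or irradiated WT 2 (0.072) was left out.

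Over the 7 lists together, 141 distinct genes besides the members were tested, of which 16 passed in WT and 25 in KO cells, Kitl included in both, and 0 in either genotype comparison or the difference of effects. Over all genes 4.83% passed in WT and 5.94% in KO cells. The count of 16 was 27 with the replicate block within genotype, and leaving out untreated WT 2, untreated WT 3 or irradiated WT 3 gave 9, 4 or 10. The count of 25 was 15 without untreated KO array 2.

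**Figure D4:**
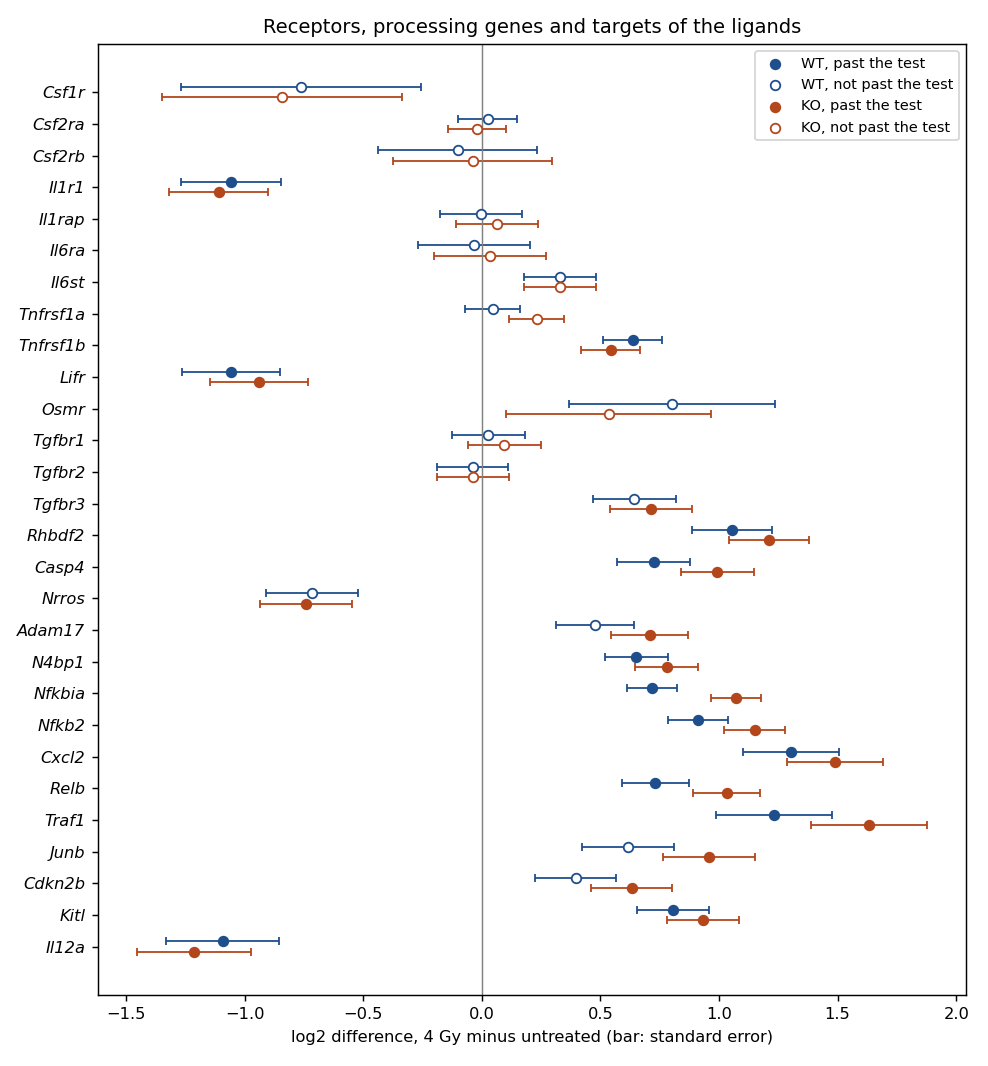
Log2 differences between irradiated and untreated cells for the named receptors, processing genes, targets and other ligands, in WT (blue) and KO cells (orange), with bars of 1 SE. Filled points passed the limma test at an adjusted p of 0.05, Kitl from untreated values under the brightness limit. Il1r1, Lifr and Il12a lie near -1 in both genotypes, and Rhbdf2, Traf1 and Cxcl2 above 1.

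The genes whose profile over the 12 arrays was most like that of Csf1 were Ercc5, Ahnak2, Igsf9b, Plxna1, Psrc1 and Slc19a2. Likeness was the root mean square difference of log2 values after each gene was centred on its own mean, over 14058 genes. It was 0.32 for Ercc5, Ahnak2, Igsf9b and Plxna1 and 0.33 for Psrc1 and Slc19a2, against a median of 1.10 over all genes compared. Csf1 lay 1.08 from its own mean by this measure, which is what a flat gene would score. The likeness thus rests largely on a shared difference between irradiated and untreated arrays. Ercc5, an excision repair nuclease, differed by 1.89 in WT and 1.72 in KO cells between irradiated and untreated arrays. Slc19a2, a thiamine transporter, differed by 1.93 and 2.10. Plxna1, a semaphorin receptor, differed by 2.43 and 2.25, Ahnak2 by 2.42 and 2.13, Psrc1 by 2.16 and 2.02 and Igsf9b by 1.84 and 1.87. The likeness and these sizes rest on the brightest probe set of each gene. With the mean of a gene's probe sets Plxna1 differed by 1.43 in WT and 1.30 in KO cells and Ahnak2 by 1.64 and 1.46. These genes were picked for likeness to Csf1, so their differences are a description.

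**Figure D5:**
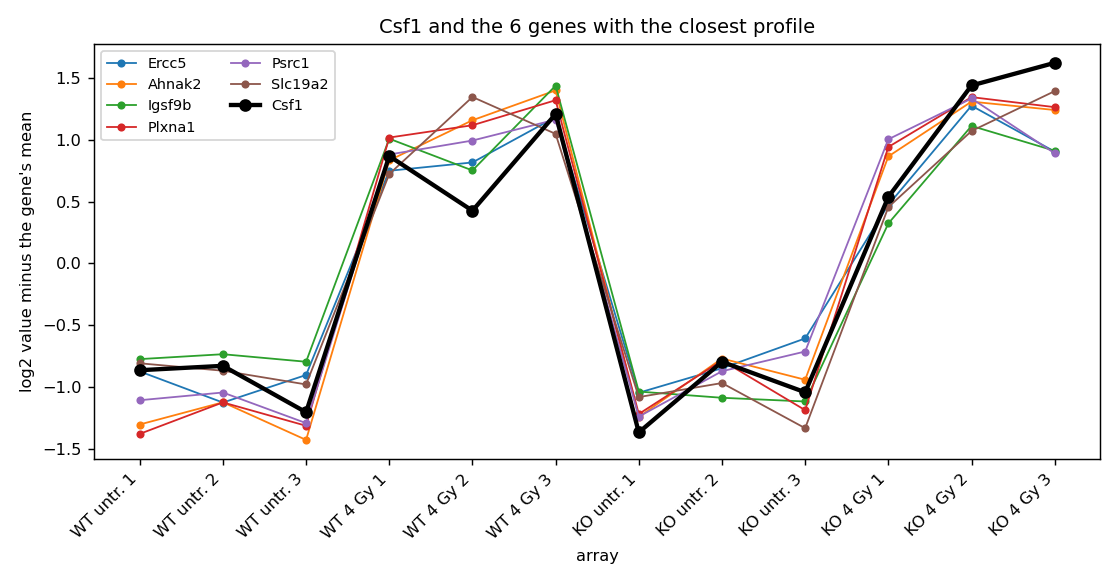
Log2 value minus the gene's own mean (vertical) in the 12 arrays (horizontal) for Csf1 in black and the 6 genes with the closest profile, where lines only join the points of 1 gene. All 7 genes are below their mean in the 6 untreated arrays and above it in the 6 irradiated ones.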

How the data were processed

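The authors deposited log2 expression values per probe set and array; oligo and RMA, named in the submitters' processing notes, correct background, normalize by quantiles and summarise probes. The sources used here give no version, genome build or annotation release. Of 41345 probe sets, 23521 had 1 symbol, 1814 several and 16010 none in the platform annotation. Of the probe sets with 1 symbol, 23328 had a gene ID that matched RefSeq. A gene was tested if it exceeded 5.29 in at least 3 arrays. All 12 arrays entered 1 linear model (limma 3.58.1, R 4.3.3) with moderated two-sided tests, with Benjamini-Hochberg adjustment over 15348 genes and a threshold of 0.05. An exact permutation test of 3 against 3 arrays cannot go below 0.1. The fit was checked on simulated data with noise drawn independently for each gene and array. In the WT comparison over 15348 genes it recovered 91 of 100 genes changed by 1 and 98 of 100 changed by 2. It called 12 unchanged genes as well. Deviations of the measured arrays correlate with each other, so recovery in these data can differ. Nothing says that the replicates are separate cultures, so p-values measure the spread between these arrays. The labels do not say which arrays share a pool, and the main fit used group means without pairs. By correlation of their deviations, replicate numbers pair the WT arrays (0.42 to 0.49) but not the KO arrays (-0.24 to 0.47). There untreated array 2 went with irradiated array 3 (0.44) and untreated array 3 with irradiated array 2 (0.52). The number of arrays limits precision. Members and lists were chosen with earlier results of these data known. Named are the members, 13 receptors, Zc3hc1, up to 5 passing genes per list by the smallest p of the irradiation effect averaged over genotypes and the 6 genes most like Csf1. Alternatives were other filters, scalings, priors, blocks, probe set rules and arrays left out.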

Additional observations from a re-analysis of the deposited data

How the results depend on the processing

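Under 22 other settings, no value of the 8 tested ligands passed the test for genotype (498 values, adjusted p 0.803 to 1.00). Their 348 differences between irradiated and untreated cells moved by less than 1 residual SD, a wide mark for ligands with a large spread. Signs still changed for Il6 (-0.38 to 0.12 in WT, -0.39 to 0.03 in KO cells) and Csf2 (-0.06 to 0.15 and -0.15 to 0.09). They also changed for Tgfb1 (-0.45 to 0.11 and -0.12 to 0.13) and, in KO cells, for Il1b (-0.12 to 1.32). Csf1 kept its direction in all 22 settings. Over all genes, 742 passed between irradiated and untreated WT cells, and 1228 with the replicate block within genotype. In KO cells 911 passed, 1390 with that block and 557 with only the KO arrays. With only the WT arrays the WT count was 729. What lowered the KO count was not tested. The block joins KO arrays by numbers that do not pair them. With single arrays left out the count ranged from 314 to 1040 in WT and from 392 to 1573 in KO cells. Counts moved by over 1.5 times without untreated WT 2 (337), untreated WT 3 (314) or irradiated WT 3 (350) in WT cells, and without untreated KO 1 (483), untreated KO 2 (392), irradiated KO 1 (1573), irradiated KO 2 (468) or irradiated KO 3 (533) in KO cells. It remained 1 for each genotype comparison and 0 for the difference of effects. No call of a named gene turned direction. The replicate block changed no genotype call of a ligand. Csf2 gave no value under the 60th percentile limit or with the mean of its probe sets, where it was too dim. Dim transcripts such as Csf2 and Il1a limit what differences can be seen.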
